A study of Mus musculus with 8 samples.

Results

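GABA-A receptor subunits were read in the striatum of R6/2 mice, a transgenic model of Huntington's disease, and of wild-type (WT) controls. The subunits followed were Gabra2, Gabra3, Gabra4, Gabra5, Gabrb1, Gabrb2 and Gabrd, 7 genes of the 17744 named genes that were tested. Their probes were taken by gene name, as the scanner files or the authors' table spell it, and 11 of 55681 non-control probes qualified. Gabrd, the delta subunit of extrasynaptic receptors, was lower in R6/2 striatum (log2 difference -0.74 ± 0.08, SE, 4 arrays a group), so that WT stood 1.67-fold above R6/2. The probes of the other 6 genes did not pass the test, and their R6/2 and WT arrays overlapped.

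The R6/2 group held striatum of male mice aged 4 weeks, and the WT group the same tissue, sex and age, with 4 arrays in each group. R6/2 mice express the first exon of human huntingtin, with an expanded CAG repeat, from a transgene driven by human huntingtin promoter sequence and so not limited to one cell type. The labels name no strain, treatment or litter. Whether each sample is a different animal is not said either, and the p-values then speak only of the spread among these arrays, some of which may be technical.

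GABA-A receptors are chloride channels opened by the transmitter GABA and are built from alpha and beta subunits together with a gamma or delta subunit. Receptors with alpha2 or alpha3 and a gamma subunit gather at synapses, where they carry fast, phasic inhibition. Receptors with delta, often joined to alpha4, and many receptors with alpha5 lie outside synapses and carry tonic inhibition from low ambient GABA. Beta subunits occur in both pools. In the striatum, projection neurons are themselves GABAergic and hold both kinds of receptor.

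The probes are 60-base oligonucleotides, and their sequences bear on 3 readings below. The first 2 stretches are of the Gabra2 probes and show why these are not independent: the capitals mark the 29 bases that both probes hold. The 4 others are the last 30 bases of the Gabrd probe, which carried the difference, of the Gabra4 probe and of the Gabra3 probes, which read different stretches of a transcript. All are from the scanner files, written 5′ to 3′ on the gene's strand.
Gabra2 probe A_55_P2177351, bases 31 to 60: tTCAGCTCACTTCAATCATTGGAAACTACC
Gabra2 probe A_55_P2027900, bases 1 to 30: TCAGCTCACTTCAATCATTGGAAACTACCt
Gabrd probe A_51_P149623, bases 31 to 60: gagaaaaacaagtgggggtggatgaccact
Gabra4 probe A_55_P2023902, bases 31 to 60: taaattgattctagaaaactggggaccggg
Gabra3 probe A_55_P1963463, bases 31 to 60: tgcaatgtttagcggctgttcattaaactc
Gabra3 probe A_55_P2112772, bases 31 to 60: acagagaaagagacagagagacagaaagac

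Of the 60 bases of a probe, 21 to 30 were G or C in the 11 probes, against a median of 26 over all tested probes. The Gabrd probe was the highest of the 11 at 30, and 6 of the 11 stood at 21, the 5th percentile of all tested probes. The signals of different probes are therefore not read as relative expression of their genes, and the tests compare genotypes within a probe, except where a gene is said to be the mean of its probes. Levels are log2 signal minus the 75th percentile of that array, so that 0 is the 75th percentile, and all 11 probes were well above background on 8 of 8 arrays. No spot on the arrays was saturated.

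All 8 arrays were on 1 slide, and in the file headers the first position number was 1 for WT and 2 for R6/2, so that position on the slide and genotype cannot be told apart. The 75th percentiles of the 8 arrays were 434 to 486 in processed signal, and correlations between arrays of 1 genotype were 0.983 to 0.993. Across the 35121 probes tested, 529 passed an adjusted p of 0.05 (limma, Benjamini-Hochberg over all tested probes), 400 of them lower in R6/2 and 129 higher. With the replicate number as a block, 283 passed. The lower share of the calls was 75.6% on the scale used here, 64.4% after quantile normalization and 55.7% after scaling to the median.

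**Figure D1:**
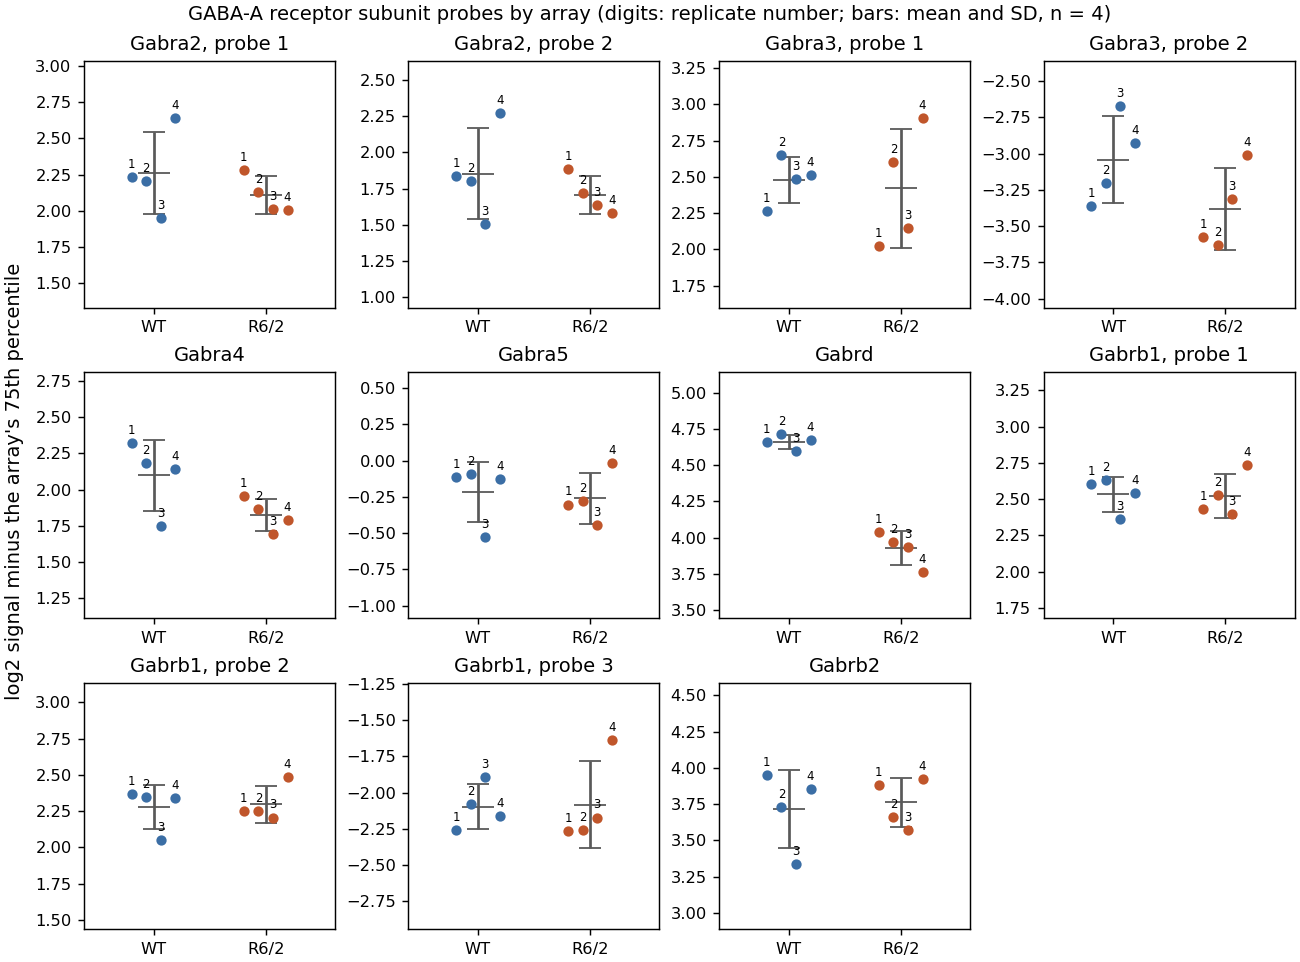
Log2 signal relative to the array's 75th percentile (y axis) for each of the 11 subunit probes in WT and R6/2 striatum (x axis); points are arrays, digits are replicate numbers, and bars are the mean and SD (n = 4). Each panel spans the same height, and probes of a gene are numbered from the brightest in WT. The R6/2 arrays lie below all WT arrays for Gabrd (3.76 to 4.04 against 4.60 to 4.72), and the genotypes overlap in the other 10 panels.

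Gabrd encodes the delta subunit, which marks extrasynaptic receptors of high GABA affinity. Its probe, A_51_P149623, was designed on NM_008072, and the files place 19 of its 60 bases at chr4:154759071-154759089 on the minus strand (mm9). It read 4.66, 4.72, 4.60 and 4.68 in WT 1 to 4, and 4.04, 3.97, 3.94 and 3.76 in R6/2 1 to 4. The lowest WT array stood above the highest R6/2 array, and the SD was 0.05 in WT and 0.12 in R6/2 (n = 4 each). The difference was -0.74 ± 0.08 (log2, SE), with a 95% confidence interval of -0.92 to -0.56 and an adjusted p of 0.0102 in limma, which puts WT 1.67-fold above R6/2. It ranked 36th by p among the 35121 probes. In bulk tissue, fewer cells of a type and less RNA per cell cannot be told apart.

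Gabrd was thus 1 of 11 subunit probes called lower and none was called higher, against 1.14% of all tested probes called lower and 0.367% called higher. It was also the only one of the 11 whose R6/2 arrays all lay below the WT arrays, which held for 6.19% of all tested probes. In arrays of the same replicate number, Gabrd differed by -0.62, -0.75, -0.66 and -0.92. With the genotypes fully separate, any pairing puts R6/2 lower in 4 of 4 pairs, so that count adds nothing. The limma adjusted p was 0.0482 with the replicate block. Without both arrays numbered 3, an alternative chosen after the values were seen, the difference was -0.76 with an adjusted p of 0.0753 in limma, and 29 probes in all were called. In the authors' deposited table, Gabrd is down 1.65-fold with an adjusted p of 0.0381, and the lowest adjusted p of the other 10 probes in that table is 0.542.

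Gabra4 encodes the alpha4 subunit, the usual partner of delta in extrasynaptic receptors. The probe A_55_P2023902 (NM_010251, chr5:71961055-71961114, minus strand, mm9) read 2.32, 2.18, 1.75 and 2.14 in WT 1 to 4. In R6/2 1 to 4 it read 1.96, 1.86, 1.70 and 1.79. WT 3 stood apart from the other WT arrays and lay within the R6/2 values, while the other 3 WT arrays lay above all R6/2 arrays. The difference was -0.27 ± 0.13 (log2, SE), with a 95% interval of -0.57 to 0.02, and did not pass the test (limma adjusted p = 0.330). R6/2 was the lower in 4 of 4 pairs, with differences of -0.05 to -0.37. With the replicate block the SE was 0.08 and the limma adjusted p 0.146. Leaving out 1 array gave -0.39 without WT 3 (limma adjusted p = 0.0877) to -0.20 without WT 1 (0.485).

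Gabra5 encodes the alpha5 subunit, found largely outside synapses. The probe A_52_P143037 (NM_176942, chr7:64663486-64663545, minus strand, mm9) read -0.11, -0.09, -0.53 and -0.13 in WT 1 to 4. It read -0.30, -0.28, -0.44 and -0.02 in R6/2 1 to 4. WT 3 was the lowest of all 8 arrays and R6/2 4 the highest. The difference was -0.05 ± 0.13 (log2, SE), with a 95% interval of -0.34 to 0.25 (limma adjusted p = 0.892). Scaling to the median turned it to 0.03.

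Gabra2 encodes the alpha2 subunit, a synaptic alpha of forebrain neurons. Its probes cover chr5:71352275-71352334 (A_55_P2027900, AK046953) and chr5:71352306-71352365 (A_55_P2177351, NM_008066), both on the minus strand of mm9. The first read 2.24, 2.21, 1.95 and 2.64 in WT 1 to 4 and 2.28, 2.13, 2.01 and 2.01 in R6/2 1 to 4. WT held both the highest and the lowest of the 8 arrays, WT 4 and WT 3. The second read 1.83, 1.80, 1.51 and 2.27 in WT and 1.88, 1.72, 1.64 and 1.58 in R6/2, with the same arrays at the ends. The differences were -0.15 ± 0.14 and -0.15 ± 0.16 (log2, SE), with 95% intervals of -0.48 to 0.18 and -0.51 to 0.21 (limma adjusted p = 0.649 and 0.680). Sharing 29 bases, the probes read nearly the same piece of RNA and count as 1 measurement of the gene. Without WT 4 they were -0.023 and -0.0096, and without WT 3 -0.25 and -0.26. In pair 4 the differences were -0.63 and -0.69, and in the other 3 pairs they were -0.08 to 0.13.

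Gabra3 encodes the alpha3 subunit, also a synaptic alpha. The brighter probe, A_55_P1963463 (NM_008067, chrX:69678031-69678090, minus strand, mm9), read 2.27, 2.65, 2.48 and 2.51 in WT 1 to 4. It read 2.03, 2.61, 2.15 and 2.91 in R6/2 1 to 4, so that R6/2 held both the lowest and the highest array. The SD was 0.41 in R6/2 and 0.16 in WT (n = 4 each), and the difference was -0.06 ± 0.20 (log2, SE; 95% interval -0.51 to 0.39; limma adjusted p = 0.910). Its direction turned under 5 alternatives, among them scaling to the median (0.02).

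The other Gabra3 probe, A_55_P2112772 (NM_008067, chrX:69679357-69679416, minus strand, mm9), lies nearer the start of the same transcript and was dim. It read -3.36, -3.20, -2.67 and -2.93 in WT 1 to 4 and -3.58, -3.63, -3.31 and -3.01 in R6/2 1 to 4. The R6/2 arrays were mostly the lower ones, but R6/2 3 and R6/2 4 stood above WT 1. The difference was -0.34 ± 0.19 (log2, SE; 95% interval -0.77 to 0.09; limma adjusted p = 0.402). In same-numbered arrays R6/2 was the lower in 4 of 4 pairs (-0.22, -0.43, -0.64 and -0.08), and with the replicate block the SE was 0.11 and the limma adjusted p 0.171. The dim probe differed by -0.18 with normexp background correction and by -0.22 without WT 3. The intervals of the brighter and the dimmer probe overlapped, and neither passed the test.

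Gabrb1 encodes the beta1 subunit and was read by 3 probes, 2 of which carry other names in the scanner files (C030009O12Rik and D5Buc30e) and are listed as Gabrb1 only in the authors' table. The probe named Gabrb1 in both, A_51_P368757 (NM_008069, chr5:72528086-72528145, plus strand, mm9), read 2.37, 2.35, 2.05 and 2.34 in WT 1 to 4. It read 2.25, 2.25, 2.21 and 2.49 in R6/2 1 to 4. WT 3 was the lowest of the 8 and R6/2 4 the highest. The difference was 0.02 ± 0.10 (log2, SE; 95% interval -0.21 to 0.26; limma adjusted p = 0.935).

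The probe A_55_P2286176 (AK140124, chr5:72540069-72540128, plus strand, mm9) was the brightest of the 3 and read 2.60, 2.63, 2.36 and 2.54 in WT 1 to 4. It read 2.43, 2.53, 2.40 and 2.73 in R6/2 1 to 4, again with WT 3 lowest and R6/2 4 highest. The difference was -0.01 ± 0.10 (log2, SE; 95% interval -0.24 to 0.22; limma adjusted p = 0.969). The dim probe A_55_P2239352 (CF746308, chr5:72533638-72533697, plus strand, mm9) read -2.26, -2.08, -1.90 and -2.16 in WT and -2.26, -2.26, -2.17 and -1.64 in R6/2. R6/2 4 alone stood above the WT arrays, and the difference was 0.01 ± 0.15 (log2, SE; 95% interval -0.34 to 0.37; limma adjusted p = 0.974). The direction of all 3 small differences changed with the setting, scaling included for A_55_P2286176 (0.07 when scaled to the median).

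Gabrb2 encodes the beta2 subunit, which pairs with synaptic and extrasynaptic alpha subunits. The probe A_51_P227679 (NM_008070, chr11:42445782-42445841, plus strand, mm9) read 3.95, 3.73, 3.33 and 3.85 in WT 1 to 4. It read 3.88, 3.66, 3.57 and 3.92 in R6/2 1 to 4, inside the range of the WT arrays. The difference was 0.05 ± 0.15 (log2, SE; 95% interval -0.30 to 0.39; limma adjusted p = 0.905).

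**Figure D2:**
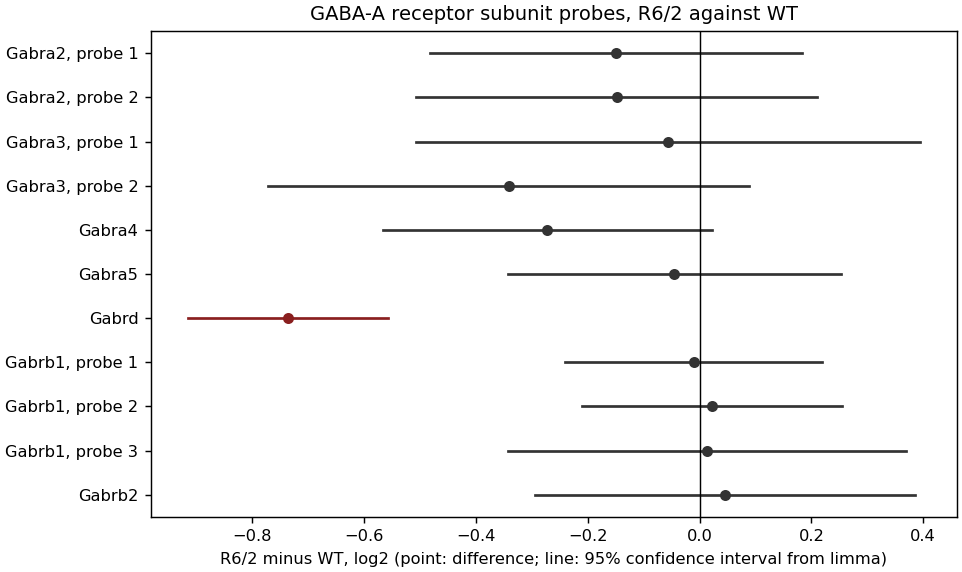
Difference between R6/2 and WT (x axis, log2) for each of the 11 probes of the 7 genes (y axis); points are differences and lines are limma's 95% confidence intervals, with probes of a gene numbered from the brightest in WT. Only the interval of Gabrd (-0.92 to -0.56, red) belongs to a probe that passed the test; those of the other 10 probes include 0.

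The 95% intervals also give the changes that 4 arrays a group left possible. For the beta subunits they ran from a fall of 0.34 to a rise of 0.39 on the log2 scale over the 4 probes. For Gabra4 the interval still held a fall of 0.57. None of these intervals, other than those of Gabra4 (-0.57 to 0.02) and of the dim Gabra3 probe (-0.77 to 0.09), overlapped that of Gabrd, whose upper end was -0.56. The differences between subunits were not tested.

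Arranged by receptor pool, with each gene at its brightest tested probe and centred on its WT mean, the extrasynaptic subunits Gabra4, Gabra5 and Gabrd averaged -0.29, -0.33, -0.45 and -0.34 (log2) in R6/2 1 to 4. The WT arrays lay between -0.24 and 0.11, above all R6/2 arrays. The synaptic alpha subunits Gabra2 and Gabra3 averaged -0.21, 0.00012, -0.29 and 0.09 in R6/2, and -0.15 to 0.21 in WT, with the genotypes overlapping. The extrasynaptic mean minus the synaptic mean was -0.25 over the R6/2 arrays, with an SD between arrays of a genotype of 0.16. Leaving out Gabrd, Gabra4 and Gabra5 averaged -0.32 to -0.06 in R6/2 and -0.33 to 0.16 in WT, which overlapped. The lower extrasynaptic mean was therefore separated from WT with Gabrd in it and not without it. The beta subunits averaged -0.14 to 0.20 in R6/2 and -0.28 to 0.15 in WT. These are descriptions of 7 genes, with no test over the groups.

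Set against the mean of the other 6 genes on the same array, Gabrd stood at -0.07, -0.02, 0.19 and -0.10 (log2, centred) in WT 1 to 4. In R6/2 1 to 4 it stood at -0.53, -0.63, -0.48 and -0.98. The shortfall of Gabrd was thus present on each R6/2 array relative to the other subunits of that array. WT 3 was the lowest WT array for 8 of the 11 probes, in 6 of the 7 genes, and R6/2 3 was the lowest R6/2 array for 5 probes. WT 3 and R6/2 3 also had the lowest 75th percentiles, 435 and 434; the part of this in the subunit values was not tested.

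**Figure D3:**
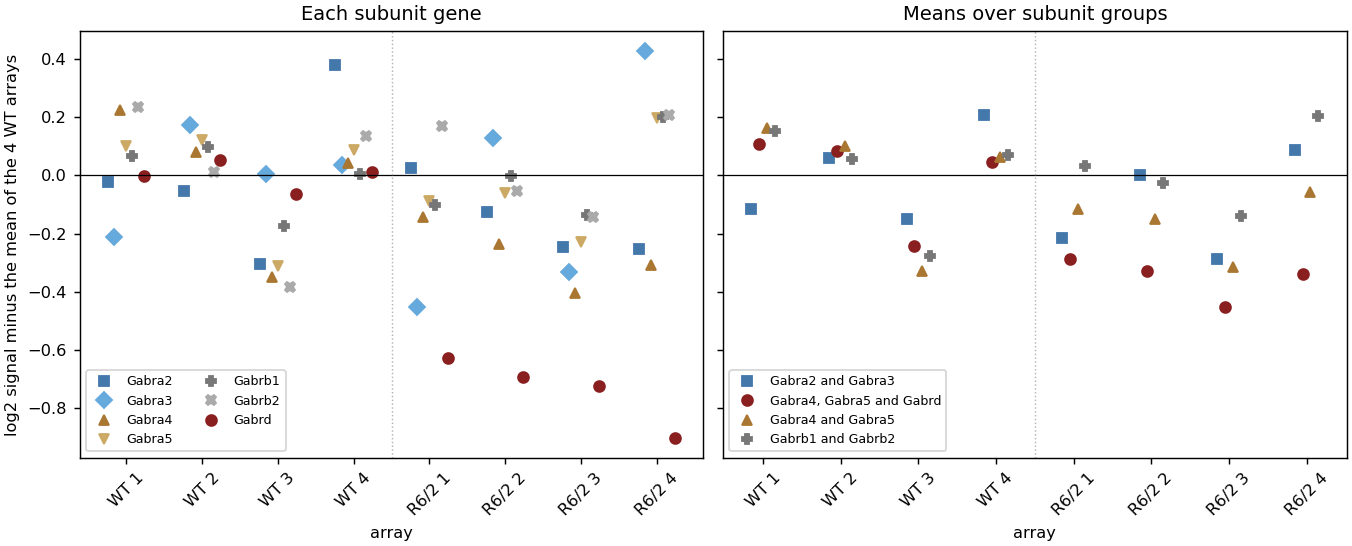
Log2 signal minus the mean of the 4 WT arrays (y axis) on each array (x axis) for the 7 genes (left) and for the means over subunit groups (right); each gene is its brightest tested probe. Gabrd lies at -0.90 to -0.63 on the R6/2 arrays; the mean of Gabra4, Gabra5 and Gabrd lies below WT on all 4 R6/2 arrays, and the mean of Gabra4 and Gabra5 (-0.32 to -0.06) overlaps WT.

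The array held 20 probes of 12 other GABA-A and rho subunit genes, of which 15 probes of 9 genes were tested. None passed the test in either direction in limma, and 0 had an unadjusted p under 0.05; the test of the authors' table, run on the same values, also called 0, as did each alternative. By p, Gabrg3 (-0.15 ± 0.10, limma adjusted p = 0.517) and Gabre (-0.14 ± 0.11, adjusted p = 0.560) came first among the genes. Without R6/2 4 Gabre stood at -0.051, and Gabrg3 ran from -0.22 to -0.094 when 1 array was left out. The 4 Gabrg3 probes ran from -0.23 to 0.11. Gabra6, the cerebellar partner of delta, Gabrq and Gabrr3 were well above background on too few arrays to be tested. The median difference of the 9 genes was 0.04, against 0.02 over all genes.

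Around the receptor, 6 lists of GABA-related genes besides the 7 subunits held 68 genes, of which 63 were tested and 0 called by limma, against 1.91% of all tested genes called. Of the 63, 8 had an unadjusted p under 0.05, 32 were lower in R6/2, and the median was -0.0073 (log2). Over all 17744 genes, 3359 had an unadjusted p under 0.05.

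In the GABA-B receptor list, the metabotropic receptor for GABA, 0 of 6 genes passed. Gabbr2, a subunit of that receptor, differed by -0.48 ± 0.16 (log2, SE; limma adjusted p = 0.186). WT 3 was its highest array at 0.63 and the other WT arrays were at -0.04 to 0.14, against -0.49 to -0.03 in R6/2; without both arrays numbered 3 the difference was -0.26. Kctd16, an auxiliary subunit, was lower by -0.25 ± 0.09 (limma adjusted p = 0.194), with all R6/2 arrays (0.38 to 0.41) below all WT arrays (0.42 to 0.75). As the mean of its 3 probes, Gabbr2 was called (-0.55 ± 0.09, limma adjusted p = 0.0183).

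Of the genes that make, carry and break down GABA, 0 of 9 passed. Gad1 and Gad2, which make GABA from glutamate, differed by -0.27 ± 0.14 and -0.15 ± 0.09 (log2, SE; limma adjusted p = 0.367 and 0.454), with overlapping arrays. Slc32a1, which loads GABA into vesicles, differed by 0.15 ± 0.09.

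Among the scaffold and trafficking genes, 0 of 24 passed. Iqsec3, a gephyrin-binding exchange factor of inhibitory synapses, came nearest the threshold. It read 3.34, 3.31, 3.33 and 3.46 in WT 1 to 4 and 2.84 to 3.1 in R6/2 1 to 4, without overlap. Its difference was -0.38 ± 0.08 (log2, SE; limma adjusted p = 0.0590). Iqsec3 was called under 3 of the alternatives (adjusted p = 0.0215 to 0.0473), normexp background correction, probes well above background on 8 arrays, and array weights. Nsf, a vesicle fusion factor, differed by -0.26 ± 0.08 (adjusted p = 0.164). Of the 24, 11 had a negative difference and the median was 0.03. Those with an unadjusted p under 0.05 included 3 higher genes, Maged1 (0.22 ± 0.08, all R6/2 arrays above all WT arrays), Dmd (0.30 ± 0.12) and Slitrk3 (0.20 ± 0.09), named here after their values were seen.

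Gabarap, a GABA-A receptor-associated protein, was read by 3 tested probes that disagreed. The brightest, which stands for the gene, differed by 0.07 ± 0.12, and another by 0.07 ± 0.09. The third, A_55_P2000718, was called lower at -0.57 ± 0.08 (log2, SE; limma adjusted p = 0.0246). It is named here after its values were seen.

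In the chloride gradient list, which sets the direction of current through GABA-A receptors, 0 of 12 passed. Oxsr1, a kinase that acts on chloride cotransporters, differed by 0.31 ± 0.09 (log2, SE; limma adjusted p = 0.146) and Wnk1, a kinase upstream of it, by 0.15 ± 0.09 (adjusted p = 0.451). The cotransporter that extrudes chloride, Slc12a5, differed by -0.06 ± 0.11, and the one that loads it, Slc12a2, by 0.16 ± 0.12. Of the glycine receptor, 0 of 3 tested genes passed. Glra3 differed by 0.74 ± 0.34 (adjusted p = 0.310), on a dim probe that stood between -6.71 and -4.79, and Glra2 by 0.23 ± 0.14 (adjusted p = 0.462). With normexp background correction Glra3 differed by 0.12, and without WT 3 Glra2 differed by 0.099.

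**Figure D4:**
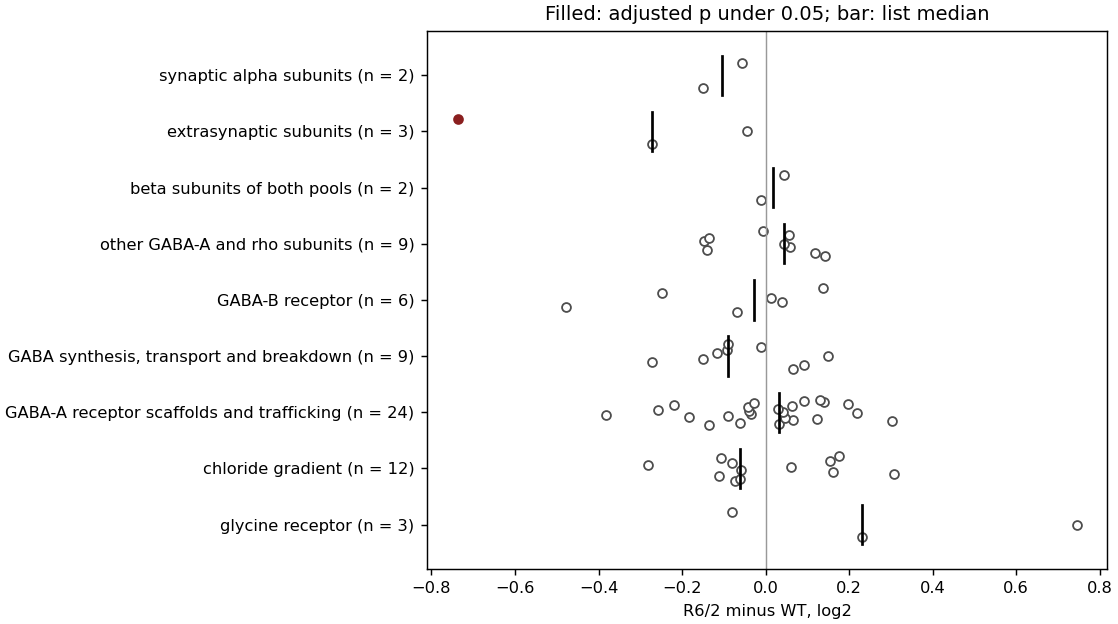
Difference between R6/2 and WT (x axis, log2) for every tested gene of each list (y axis, number of genes in brackets); bars are list medians, and filled points passed an adjusted p of 0.05 in limma. Gabrd, at -0.74, is the only filled point; the other points lie between -0.48 (Gabbr2) and 0.74 (Glra3).

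Among the 5 genes whose centred signal over the 8 arrays lay closest to that of Gabrd, out of 17741 genes, were Pmepa1, Inpp5j, Nrgn and Pde1b. The root mean square distance from Gabrd was 0.06, 0.07, 0.07 and 0.08 (log2). Their differences were -0.74 ± 0.10 for Pmepa1 and -0.75 ± 0.08 for Inpp5j, an inositol phosphatase. For Nrgn, a calmodulin-binding protein of dendritic spines, the difference was -0.61 ± 0.08, and for Pde1b, a calmodulin-dependent phosphodiesterase abundant in striatum, -0.69 ± 0.11. These 4 were called lower in limma (adjusted p = 0.0102 for Inpp5j and 0.0219 to 0.0288 for the rest), and the likeness was measured on the same arrays. Pde1b was not called with the replicate block (limma adjusted p = 0.0609). Inpp5j kept its call when any 1 array was left out. The calls of Pmepa1, Nrgn and Pde1b were lost without WT 1, without WT 2, without WT 4 or without R6/2 3, and some of them without R6/2 1, R6/2 2 or R6/2 4, at limma adjusted p values of up to 0.0723 for Pmepa1, 0.0725 for Nrgn and 0.0911 for Pde1b. Scaling to the median also ended these 3 calls (adjusted p = 0.0618 to 0.0754), as did testing with no filter on dim probes (0.0646 to 0.0807). Without both arrays numbered 3 none of the 4 was called (0.0615 to 0.0975), and the test of the authors' table ended that of Pde1b (0.0552).

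Striatal projection neuron markers were well above background on 8 arrays for 20 of 20. So were 14 of 14 interneuron, 7 of 7 thalamic, 11 of 12 cortical and 7 of 8 hippocampal markers. The same held for 10 of 10 in each of the astrocyte, oligodendrocyte, microglia and endothelial or mural lists. Detection therefore does not tell the labelled tissue from others. The projection neuron markers were, like Gabrd, mostly lower in R6/2: 19 of 20 had a negative difference and 10 were called lower. All R6/2 arrays lay below all WT arrays for 16 of them, and the median difference was -0.71. Tac1 went the other way (0.21 ± 0.10, log2, SE), and the genotypes overlapped for Tac1, Bcl11b, Gnal and Meis2. Of all 17744 genes tested, 1.46% were called lower and 6.75% had all R6/2 arrays below all WT arrays, and the median difference was 0.02. The summed level of the projection neuron markers, in units of each array's 75th percentile, was 1127 to 1295 in WT and 627 to 850 in R6/2. Interneuron and cortical markers lay lower as well. Of the interneuron markers, 1 of 14 was called lower (Th), 13 had a negative difference with a median of -0.41, and the sums were 155 to 175 in WT and 104 to 135 in R6/2. Of the tested cortical markers, 1 of 11 was called (Nrgn), 11 had a negative difference with a median of -0.25, and the sums were 51.5 to 59.3 and 35.2 to 43.8. The thalamic markers were negative in 7 of 7, with a median of -0.59. The general neuron genes had 0 of 12 called, and 9 had a negative difference with a median of -0.16. Their sums were 410 to 443 in WT and 358 to 392 in R6/2. In the other marker lists 0 were called: 0 of 7 thalamic, 0 of 8 hippocampal, and 0 of 10 each for astrocytes, oligodendrocytes, microglia and endothelial or mural cells. Of the hippocampal neuron markers, 4 of 8 had a negative difference, with a median of -0.13. Negative differences were not limited to neuronal lists. They held for 7 of 10 astrocyte, 6 of 10 oligodendrocyte, 8 of 10 microglia and 9 of 10 endothelial or mural markers. The medians of these lists were -0.09, -0.06, -0.09 and -0.22. Over all 17744 genes, 8184 had a negative difference. The microglia sums were 143.6 to 167.8 in WT and 127.5 to 143.1 in R6/2, ranges that nearly met. Only 1 of the 10 microglia markers (Itgam) had all R6/2 arrays below all WT arrays. No listed marker fell short of this background threshold on all 8 arrays. That includes the untested cortical marker Neurod1, which reached it on 2. The sum of the thalamic markers was 4.09 to 13.9 in WT and 3.36 to 3.90 in R6/2, and that of the endothelial and mural markers 32.1 to 80.3 and 32.9 to 38.4, so that both ranges were wide in WT. The part of these markers in the Gabrd result was not tested.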

How the data were processed

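The intensity values were deposited as scanner output of 1-colour arrays, made with Agilent Feature Extraction 10.7.3.1 per the file headers. The log2 values, p-values and fold changes in the authors' deposited table served as an alternative; how they were normalized is not given in the sources used here. Each array's log2 processed signal was reduced by its 75th percentile over non-control spots, outlier spots were left out, and spots of a probe were averaged. Probes well above background on at least 4 of 8 arrays were fitted in limma 3.58.1 (R 4.3.3), R6/2 minus WT, and called at an adjusted p under 0.05. The fit was tested on simulated data. A gene is its tested probe of highest mean signal. Text names every subunit probe, the called or 2 smallest-p genes of a list, and the 5 genes nearest Gabrd; some genes are not reported here. The members and lists were chosen with earlier results of these data known, the fall of Gabrd included. Arrays were paired here by replicate number, which is the second slide position in the headers. No label says that the samples are paired. The sample descriptions carry the same number in both genotypes except in pair 4. Deviations of same-numbered arrays correlated at 0.222, 0.183, 0.356 and 0.133. Precision is limited by 4 arrays a group.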

Additional observations from a re-analysis of the deposited data

Results flagged for a closer look

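Among 22 groups of 4 arrays (11 probes in each genotype), 4 held an array whose gap to its neighbour, over the range, was above Dixon's 95% critical value for 4 samples; chance gives about 1 in 20. WT 3 was low for Gabra5, at -0.53 against -0.13 for the next array, and for the Gabrb1 probe A_51_P368757, at 2.05 against 2.34. R6/2 4 was high for that Gabrb1 probe, at 2.49 against 2.25, and for the dim Gabrb1 probe A_55_P2239352, at -1.64 against -2.17.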

How the results depend on the processing

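The count of all called probes moved from 529 to 981 with normexp background correction, 1114 with array weights, 228 with median scaling, 110 with no filter on dim probes, 264 with the test of the authors' table on the values used here, and 283 with the replicate block, where 191 were shared. Leaving out 1 array gave 100 to 505, and each array but WT 3 moved it by over 1.5 times. Gabrd was called in all of these, at -0.77 to -0.66 (adjusted p 0.0026 to 0.0482); without both arrays numbered 3, added after seeing the data, 29 probes and 0 subunit probes were called. The pathway count rose from 0 to 1 with normexp, with probes above background on 8 arrays and with array weights (Iqsec3), and with the mean over the probes of a gene (Gabbr2). The extrasynaptic minus synaptic mean stayed between -0.31 and -0.17 under normexp, under quantile normalization and with arrays left out. Median scaling, outlier spots kept and the authors' values left it unchanged at -0.25. A shift of a whole array cancels in this difference, so scaling by 1 value per array could not move it. The mean includes Gabrd and is not independent of its result.

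Differences that were near 0 changed sign. With median scaling these were Gabra3 A_55_P1963463 (0.023), Gabra5 (0.034) and Gabrb1 A_55_P2286176 (0.069). With array weights they were Gabrb1 A_51_P368757 (-0.044), Gabrb1 A_55_P2239352 (-0.0036) and Gabrb2 (-0.055). Normexp gave -0.0087 for A_55_P2239352, the authors' table values gave 0.0018 and the gene mean 0.0085 for Gabrb1 A_55_P2286176. Without both arrays numbered 3, Gabra3 A_55_P1963463 was 0.036, Gabrb1 A_51_P368757 -0.022 and Gabrb2 -0.019. Leaving out 1 array gave -0.22 to 0.075 for that Gabra3 probe, -0.15 to 0.016 for Gabra5, -0.082 to 0.12 for Gabrb2, and -0.053 to 0.053, -0.13 to 0.082 and -0.081 to 0.032 for the Gabrb1 probes A_51_P368757, A_55_P2239352 and A_55_P2286176. The causes were not tested. The replicate block changed no subunit's call and, among the genes rerun (the 2 of smallest p in each list and those nearest Gabrd), ended that of Pde1b. It was not read for Th or Gabarap A_55_P2000718. A slide block was not run, since all arrays were on 1 slide. With 4 arrays a group, the intervals in the text bound what could be seen, and the dim Gabra3 probe A_55_P2112772 has one of the widest.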
